A study of Homo sapiens with 15 samples.

Results

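Cultures of H1, a human embryonic stem cell line in wide use, were compared between day 11 and day 9 of a cardiac differentiation protocol. Cells grew on the laminins LN-521 and LN-221. The comparison was made gene by gene, outside the genes already used as signature or progenitor markers. Of the 48777 genes listed in the deposited count table, 20679 passed the filter on low counts, and 20662 of these were described after 11 signature genes (ACTC1, ACTN2, MYH6, MYL4, TNNI1, TNNT2, ANKRD1, SLC8A1, CCDC80, CRHBP and IGFBP7) and ISL1, KDR, MESP1, PDGFRA, GATA4 and NKX2-5 were set aside. Each day had 3 libraries, 6 of the 15 in the series. All 6 came from the same unmodified line and the same protocol, in which CHIR99021 first activated Wnt signalling and IWP2 later blocked it, in B27 medium without insulin. In the study's methods the days count from the seeding of pluripotent cells on day 0, and CHIR99021 was first given on day 4. There IWP2 ended with the medium change of day 9, so that day 11 came after its removal. The descriptions differ on whether the medium of day 11 still lacked insulin. Time, removal of IWP2 and medium therefore cannot be told apart, while genotype and substrate were shared. Both are mixed cultures measured in bulk, so that fewer cells of a type and less RNA per cell cannot be told apart in any value below.

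Committed cardiac progenitors become contracting muscle cells over the days that follow these stages. The contractile unit, the sarcomere, is laid down from thick filaments of myosin, thin filaments of actin and troponin, the giant spring protein titin, and the Z-disc and M-band proteins that tie them together. Chaperones and ubiquitin ligases then fold myosin and replace worn parts, ion channels and the sarcoplasmic reticulum couple the membrane to contraction, and the transcription factors SRF and MEF2 drive many of these genes.

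The libraries held between 16260897 and 27518996 counts on genes. RNA integrity numbers lay between 8.9 and 10.0 and the uniquely mapped share of reads between 46% and 73%, and the lowest of both belonged to the day 9 replicate of plate 2, which also held the fewest counts. Levels are CPM, counts relative to library size, normalised by TMM over all 15 libraries. They are given in the order plate 2, plate 6 and no plate number for day 9, and plates 2, 5 and 6 for day 11. Fold changes are log2 values of day 11 over day 9 from edgeR's quasi-likelihood test, adjusted by Benjamini-Hochberg across the 20679 genes and called under 0.05. Exons of 219 of the described genes past it overlap those of another annotated gene, and how the counting treated strand is not given in the sources used here, so that reads of such pairs may be mixed.

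On day 11, 277 of these genes were higher and 207 were lower than on day 9, against a background of 1.39% of all genes tested called higher and 1.00% called lower (2.39% together). For each of the 484 genes the levels of the days were fully separated, without overlap, a pattern that 12.2% of all genes tested showed with day 11 above and 11.5% with day 11 below. Of the 484, 421 were protein coding, 44 were long noncoding RNAs and 4 were microRNA hairpins. With the plate as a block, which rests on plates 2 and 6 alone because only these held both days, 1165 genes were higher (5.66% of all genes tested) and 798 lower (3.87%, or 9.53% together), and 453 of the 484 were among them. This fit gives each plate its own level, which leaves very little spread between replicates. Its p-values therefore rest largely on the dispersion shared across genes. DESeq2 called 937 higher (4.58%) and 724 lower (3.51%, or 8.10% together), with 477 of the 484 among them. The calls rested on single libraries to a large degree. Without the day 9 replicate of plate 2 edgeR called no gene, although 2353 had an unadjusted p under 0.05, and without the day 9 replicate of no plate number it called 20 higher and 17 lower. Leaving out the day 11 replicate of plate 2 gave 101 higher and 28 lower, leaving out that of plate 6 gave 204 higher and 75 lower, and leaving out that of plate 5 gave 274 higher and 128 lower. Of the 277 risers, 175 had their highest day 9 level in the replicate of plate 6, and 143 of the 207 genes that fell had their lowest there, so that this library stood nearest to day 11 for most of them. On day 11 the replicate of plate 5 held the highest level for 179 of the 277.

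**Figure D1:**
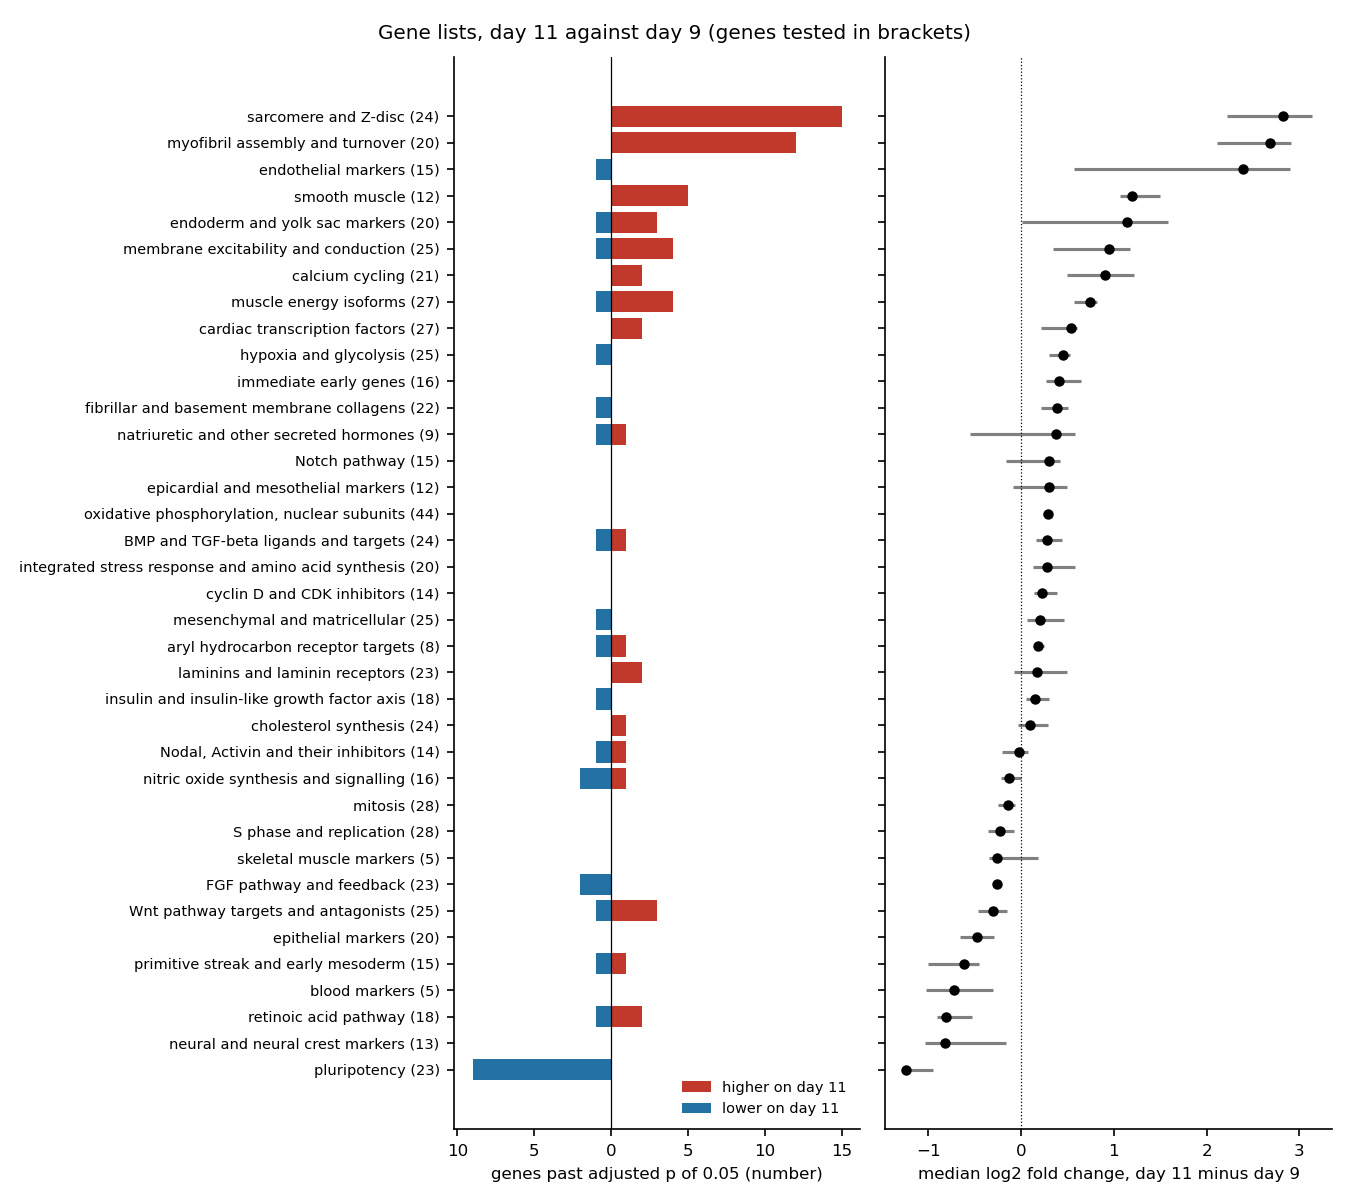
Gene lists by function. The left panel gives the number of genes past an adjusted p of 0.05, higher (red) or lower (blue) on day 11, and the right panel the median log2 fold change of the genes tested on each list (points) with its range when each replicate was left out in turn (grey lines). The sarcomere and assembly lists hold 15 and 12 genes that were higher and none that was lower, and the pluripotency list 9 that were lower and none that was higher.

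Many structural genes of the sarcomere rose and none fell. Of 26 listed genes outside the signature, 24 were tested, 15 were higher, none was lower, and the median log2 fold change was 2.82, beside 0.00 over all genes tested. It stayed between 2.22 and 3.13 when each replicate was left out in turn. MYBPC3, cardiac myosin binding protein C of the thick filament (chromosome 11, 47331406 to 47352702 of GRCh38), stood at 1.26, 0.950 and 0.700 CPM on day 9 and at 84.0, 416 and 90.4 CPM on day 11. Every day 11 replicate lay far above every day 9 replicate, with that of plate 5 the highest. The log2 fold change was 7.67 with a standard error of 0.86 (adjusted p = 0.0147), the largest among described genes that averaged 10 CPM or more on either day. The M-band protein gene MYOM1 went from 2.40, 1.76 and 1.14 CPM to 47.5, 246 and 66.1 CPM (log2 fold change 6.09), and the related MYOM2 rose by a log2 fold change of 4.08. Beta myosin heavy chain, MYH7, the slow isoform that later dominates the human ventricle, went from 0.571, 0.859 and 0.884 CPM to 14.5, 40.5 and 32.0 CPM (log2 fold change 5.19, standard error 0.45, adjusted p = 0.0103). All 3 genes were thus low on day 9, and for none did the days overlap.

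Z-disc genes made up much of the rest. CSRP3, a LIM-domain mechanosensor, rose by a log2 fold change of 6.20, LDB3, which anchors alpha-actinin, by 5.53, and MYOZ2, a calcineurin-binding Z-disc protein, by 5.43. XIRP1, an actin-binding repeat protein, stood at 6.11, 22 and 6.12 CPM on day 9 and at 141, 528 and 126 CPM on day 11 (log2 fold change 4.52, adjusted p = 0.0415, and 0.313 with the plate as a block). Its day 9 replicate of plate 6 lay above the other two and its day 11 replicate of plate 5 above both others. The slow and cardiac troponin C gene TNNC1, the calcium sensor of the thin filament, rose by 3.39, and the ventricular and slow myosin light chain MYL3 by 3.93. TTN (chromosome 2, 178525989 to 178830802), already expressed on day 9 at 682, 734 and 616 CPM, stood at 2943, 8707 and 3151 CPM on day 11 (log2 fold change 2.85, adjusted p = 0.0277). NEBL, NEXN, PDLIM5 and SYNPO2L, all Z-disc or thin-filament partners, rose by 2.23 to 3.25.

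Some sarcomere genes did not pass. MYL7, the atrial regulatory light chain, had 156, 425 and 58.2 CPM on day 9 and 875, 2891 and 638 CPM on day 11, with no overlap but a wide day 9 spread (log2 fold change 2.77, adjusted p = 0.153). TPM1, alpha-tropomyosin, had a log2 fold change of 1.60 (adjusted p = 0.0851), and CRYAB, a small heat shock protein of the Z-disc, one of 2.80 (adjusted p = 0.0636). DES, the muscle intermediate filament, overlapped between the days at 23.6, 11.9 and 19 CPM against 45.4, 35.5 and 11.5 CPM. MYL2, the ventricular regulatory light chain, and MYPN were too low to be tested on these days.

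Genes that build and turn over myofibrils also included rises and no falls. Of 24 listed, 20 were tested, 12 were higher, none was lower, and the median log2 fold change was 2.69 (2.11 to 2.91 with each replicate left out). MYO18B, an unconventional myosin that sarcomere assembly requires, had 0.628, 1.45 and 0.553 CPM on day 9 and 76.8, 336 and 30.8 CPM on day 11 (log2 fold change 7.38, adjusted p = 0.0233, and 0.146 with the plate as a block). ASB2, the substrate adaptor of a ubiquitin ligase that removes filamins, went from 0.171, 0.633 and 0.258 CPM to 38.2, 119 and 20.1 CPM (log2 fold change 7.34). Both genes were low in all day 9 replicates and most abundant in plate 5 on day 11. The myosin chaperone UNC45B was already present at 51.1, 70.5 and 46.2 CPM and reached 301, 665 and 199 CPM (log2 fold change 2.78, adjusted p = 0.0327). Its partner SMYD1, a muscle methyltransferase, rose by 2.72, with an adjusted p of 0.339 under the plate block. KLHL41, which stabilises nebulin-family proteins, rose by 5.25, HSPB7, a cardiac small heat shock protein, by 4.14, and the actin-nucleating formin FHOD3 by 2.66. Of the muscle ubiquitin ligases, TRIM63 (3.45), TRIM55 (2.15) and FBXO32 (1.73) all rose, although TRIM63 reached only 3.62 CPM. MYOCD, the muscle coactivator of SRF, had a log2 fold change of 2.37 but did not pass (adjusted p = 0.064).

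Part of the promoters of these genes carried letters that SRF or MEF2 are known to read. The 250 bases before each start in RefSeq (GRCh38.p14, one start per gene) were searched on both strands for the CArG box and for the MEF2 motif, whose matches never overlapped. Among the genes that rose, 201 of 277 had a promoter in the table, and 10 of these (4.98%) held a CArG box and 13 (6.47%) a MEF2 motif. The shares were 1.05% and 1.61% over the 13265 promoters of genes tested, 1.14% and 2.90% over all 27305 promoters, and 0.758% for each motif, a single promoter of 132, among the genes that fell. Of 17 promoters of risers on the sarcomere and assembly lists, 10 (58.8%) held one or the other, as did 13 of the 28 found in the table (46.4%) for the 44 tested genes of these lists, and 13 of 184 (7.07%) of the other risers. A match in these letters is a description and not a bound site. The following 4 promoters are shown because their genes stand for the thick filament, the Z-disc and the assembly factors that rose, with the match in capitals and the last base directly before the start of the gene. They lie at chr11:47352703-47352952 on the minus strand, chr4:119135582-119135831 and chr10:86668261-86668510 on the plus strand, and chr14:93976571-93976820 on the minus strand.
MYBPC3 promoter with a MEF2 motif: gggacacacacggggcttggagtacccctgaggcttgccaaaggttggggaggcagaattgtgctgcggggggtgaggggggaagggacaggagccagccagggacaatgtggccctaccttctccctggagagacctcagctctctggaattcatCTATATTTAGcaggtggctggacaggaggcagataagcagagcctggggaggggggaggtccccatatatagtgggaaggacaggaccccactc
MYOZ2 promoter with a MEF2 motif: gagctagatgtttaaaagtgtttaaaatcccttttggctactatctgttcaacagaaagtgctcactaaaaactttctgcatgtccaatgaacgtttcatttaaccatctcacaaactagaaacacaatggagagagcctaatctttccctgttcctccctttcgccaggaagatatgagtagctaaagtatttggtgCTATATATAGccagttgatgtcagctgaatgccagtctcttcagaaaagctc
LDB3 promoter with a CArG box: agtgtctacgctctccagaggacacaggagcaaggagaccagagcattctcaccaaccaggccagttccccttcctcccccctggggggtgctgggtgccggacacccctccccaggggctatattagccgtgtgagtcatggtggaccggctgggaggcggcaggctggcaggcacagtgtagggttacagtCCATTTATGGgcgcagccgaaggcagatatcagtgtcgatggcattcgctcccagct
ASB2 promoter with a CArG box: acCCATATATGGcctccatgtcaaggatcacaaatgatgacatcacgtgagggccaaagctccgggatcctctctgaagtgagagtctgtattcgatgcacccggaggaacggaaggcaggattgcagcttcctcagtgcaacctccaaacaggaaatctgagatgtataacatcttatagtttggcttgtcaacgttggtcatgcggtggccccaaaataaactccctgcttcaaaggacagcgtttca
The MEF2 motif began 94 bases before the start in MYBPC3 and 52 bases before it in MYOZ2, and the CArG box began 57 bases before it in LDB3 and 248 bases before it in ASB2. TTN, KLHL41, HSPB7, XIRP1, SYNPO2L and SMPX also held a MEF2 motif and MYOM1 and ACTA1 a CArG box. ACTA1 was on no list and was named after its values were seen.

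**Figure D2:**
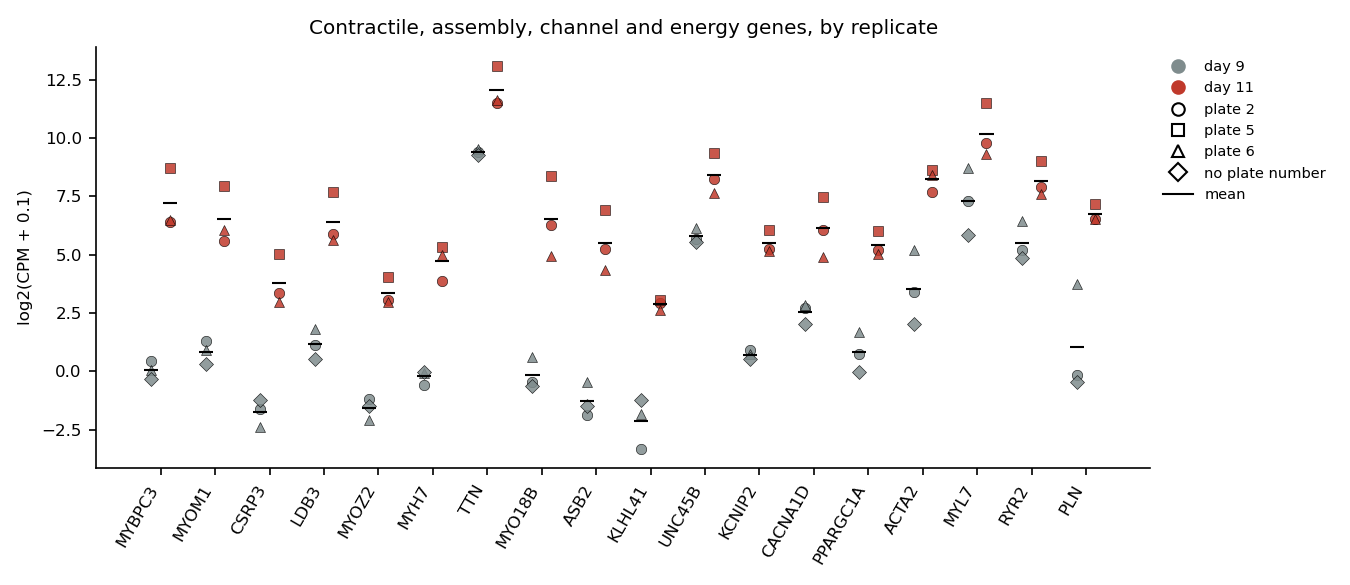
Levels of 18 muscle genes in each library as log2(CPM + 0.1), with day 9 in grey and day 11 in red, one symbol per plate and a line at the mean of each day. The days do not overlap for any of the 18, the day 11 replicate of plate 5 (square) is the highest for all of them, and PLN, ACTA2 and MYL7 show a wide day 9 spread, with plate 6 (triangle) the highest of that day.

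The genes of excitation and calcium handling moved less uniformly. Of 21 calcium cycling genes tested, 2 were higher and none lower (5 higher with the plate as a block), with a median log2 fold change of 0.91 that dropped to 0.50 without the day 11 replicate of plate 5 and to 0.32 with the block. Both were L-type calcium channel subunits. CACNA1D stood at 6.51, 7.19 and 3.98 CPM on day 9 and at 67.3, 179 and 30.2 CPM on day 11 (log2 fold change 3.96, adjusted p = 0.034), and CACNA1C, the main cardiac subunit, rose by 2.16 (adjusted p = 0.0488). The day 11 replicate of plate 5 was the highest for both channels, without overlap between days. The ryanodine receptor RYR2, the release channel of the sarcoplasmic reticulum, did not pass at 37.3, 88.0 and 28.8 CPM against 237, 519 and 197 CPM (log2 fold change 2.61, adjusted p = 0.0591). PLN, the brake on the calcium pump, had 0.799, 13.3 and 0.626 CPM on day 9 and 93.3, 147 and 93.7 CPM on day 11 (log2 fold change 4.48, adjusted p = 0.0939). For both genes the day 9 replicate of plate 6 lay above the other two and below every day 11 replicate. ATP2A2, the calcium pump itself, was already at 292, 262 and 468 CPM on day 9 and had a log2 fold change of 1.14 (adjusted p = 0.244).

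Of 25 membrane and conduction genes tested, 4 were higher and 1 lower (9 and 2 with the plate as a block), with a median of 0.95 that dropped to 0.34 without the day 11 replicate of plate 5 and to 0.49 with the block. KCNIP2, the subunit that forms the transient outward potassium current with Kv4 channels, had 1.77, 1.58 and 1.33 CPM on day 9 and 38.4, 67.6 and 35.5 CPM on day 11. With a log2 fold change of 4.91 (standard error 0.33), its adjusted p of 0.00772 was not undercut by any other gene. BVES, a cAMP-binding protein of the muscle membrane, rose by 3.57, the potassium channel gene KCNH7 by 2.78 and the sodium pump subunit ATP1B1 by 1.68. GJA1, which encodes connexin 43, was the 1 that fell, from 1289, 1148 and 2091 CPM to 286, 206 and 503 CPM (log2 fold change -2.20, adjusted p = 0.033). It had been at a mean of 4042 CPM on day 0. HCN4, the pacemaker channel, had a log2 fold change of 1.70 (adjusted p = 0.186). CHRM2, the muscarinic receptor through which the vagus slows the heart, was not on a list and rose from 8.85, 12.5 and 8.07 CPM to 52.9, 60.8 and 82.8 CPM (log2 fold change 2.72), with no overlap. It was named after its values were seen.

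Of the 27 cardiac transcription factors tested, 2 (7.41%) were called higher, both of the MEF2 family, and none lower. Over all genes tested 1.39% were called higher. DESeq2 called 6 of the list higher and 3 lower, and the plate as a block 11 and 6. The median was 0.54 (0.21 without the day 11 replicate of plate 5). MEF2C, required for heart looping and muscle genes, stood at 32.2, 26.1 and 33.9 CPM on day 9 and at 130, 209 and 78.6 CPM on day 11 (log2 fold change 2.17, adjusted p = 0.0287), and MEF2A rose by 0.83 (adjusted p = 0.0474). IRX4, a ventricular factor, missed the threshold at a log2 fold change of 2.83 (adjusted p = 0.0522). HAND2, which acts in the outflow tract and right ventricle, had a log2 fold change of -1.21 (adjusted p = 0.148), TBX5, a factor of the first heart field, one of 1.31 (adjusted p = 0.254) and TBX20 one of 0.54 (adjusted p = 0.475).

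Among 27 genes of muscle energy supply, 4 were higher and 1 lower (12 higher and 1 lower with the plate as a block), with a median of 0.74. PPARGC1A, the coactivator that drives mitochondrial biogenesis (chromosome 4, 23755041 to 23904089), stood at 1.60, 3.12 and 0.884 CPM on day 9 and at 37.2, 64.3 and 32.5 CPM on day 11 (log2 fold change 4.57, adjusted p = 0.0147). Every day 11 replicate lay above every day 9 replicate. Muscle creatine kinase CKM rose by 5.55 (adjusted p = 0.0335, and 0.105 with the plate as a block), the heart ADP/ATP carrier SLC25A4 by 2.05 and the fatty acid binding protein FABP3 by 1.71, while the mitochondrial creatine kinase CKMT1A fell by 2.42 from levels of at most 1.11 CPM. The glycogen-targeting phosphatase subunit PPP1R3A, among the 15 largest rises, went from 0.171, 0.136 and 0 CPM to 5.27, 26.6 and 5.73 CPM (log2 fold change 6.99). No nuclear subunit of the respiratory chain passed edgeR among 44 tested, while 14 had an unadjusted p under 0.05 (5 were higher with the plate as a block and 3 with DESeq2). Their median was 0.29, 41 of the 44 had a positive log2 fold change, and 27 had replicates with all of day 11 above day 9. Over all genes tested 12.2% showed this separation.

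Part of the smooth muscle list rose as well. Of 12 listed and tested, 5 were higher and none lower, with a median of 1.19. ACTA2, the smooth muscle actin that early cardiomyocytes are known to express, stood at 10.3, 36.9 and 3.98 CPM on day 9 and at 208, 391 and 340 CPM on day 11 (log2 fold change 4.18, adjusted p = 0.0476). The day 9 replicates lay far apart, with plate 6 the highest, and all were below day 11. LMOD1, an actin nucleator, rose by 3.07 (adjusted p = 0.033, and 0.193 with the plate as a block), the smooth muscle myosin MYH11 by 2.25, SYNPO2 by 3.53 and SMTN by 0.95. CNN1 and TAGLN, both contractile regulators, had log2 fold changes of 1.1 and 1.28 (adjusted p = 0.198 and 0.172).

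Secreted signals and their receptors changed gene by gene more than pathway by pathway. Among 25 Wnt pathway genes tested, with a median of -0.31, WNT2, WNT11 and DKK1 were higher and SFRP2 was lower (4 higher and 7 lower with the plate as a block). WNT2, a ligand known from the venous pole of the heart, went from 0.514, 0.588 and 0.0737 CPM to 17.6, 39.0 and 45.3 CPM (log2 fold change 6.47, adjusted p = 0.0141), and on day 20 its mean was 5.62 CPM. The antagonist DKK1 rose by 2.39 and the noncanonical ligand WNT11 by 1.55, while the antagonist SFRP2 fell by 2.56. AXIN2, a general reporter of canonical Wnt activity, had a log2 fold change of 0.11 (adjusted p = 0.792) with overlapping days. FGF8, a growth factor of the second heart field, rose from 2.91, 1.18 and 4.13 CPM to 21.1, 68.4 and 15.3 CPM (log2 fold change 3.65, adjusted p = 0.049). On the separate list of 23 FGF receptors, feedback genes and other ligands, with a median of -0.26, the receptors FGFR1 and FGFR4 were lower and none was higher, with FGFR1 falling from 853, 710 and 1069 CPM to 440, 362 and 378 CPM (log2 fold change -1.17, adjusted p = 0.0327). Of 24 BMP and TGF-beta genes, with a median of 0.28, TGFB3, a ligand of cardiac mesenchyme, rose by 3.38 and MSX2, a BMP target, fell by 1.5 (6 higher and 5 lower with the plate as a block). The activin-binding protein FST rose by 2.31.

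Further large rises were in single genes. CGA, the alpha subunit shared by the glycoprotein hormones of pituitary and placenta (chromosome 6, 87085498 to 87095106), stood at 0.0571, 0.724 and 0.0368 CPM on day 9 and at 19.3, 85.3 and 29.2 CPM on day 11 (log2 fold change 7.32, adjusted p = 0.0208). On day 20 its mean was 2.30 CPM, so that among the 5 days it was highest on day 11. Of 9 hormone genes tested, with a median of 0.38 (-0.55 with plate 5 of day 11 left out), CGA was the only one higher by edgeR and ADM, the vasodilator adrenomedullin, which fell by 1.18, the only one lower. The angiopoietin ANGPT1, a ligand of the endothelial receptor TEK, rose by 5.82 (adjusted p = 0.0227, and 0.302 with the plate as a block) and VCAM1, an adhesion molecule of cardiomyocyte precursors, by 6.08. LAMA4, the laminin chain of muscle and vessel basement membranes, went from 0.913, 1.49 and 0.221 CPM to 22.3, 117 and 51.6 CPM (log2 fold change 6.20, adjusted p = 0.0208). Of 23 laminin genes and receptors it rose along with ITGB1BP2, the muscle integrin partner melusin (4.27), and no other passed, with a median of 0.17 (6 higher and 3 lower with the plate as a block). ABRA, an actin-binding activator of SRF signalling, SMPX, a small muscle protein, and PPP1R14C, a phosphatase inhibitor, rose by 6.43, 6.16 and 6.78.

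Part of the pluripotency list fell and no member rose. Of 28 listed, 23 were tested, 9 were lower and none higher, with a median of -1.24 (-1.21 to -0.95 with each replicate left out), and 22 of the 23 had a negative log2 fold change. POU5F1, the OCT4 gene (chromosome 6, 31164337 to 31180731), stood at 93.0, 43.7 and 75.2 CPM on day 9 and at 5.66, 6.25 and 8.91 CPM on day 11 (log2 fold change -3.36, standard error 0.32, adjusted p = 0.0126, and 0.184 with the plate as a block). It had been at a mean of 1036 CPM on day 0, and its mean on day 20 was 4.43 CPM. PRDM14, which guards the naive state, fell by 3.16 from levels of at most 2.84 CPM. DPPA4, ZFP42 and L1TD1, other stem cell genes, were still at 105, 98.4 and 106 CPM, at 86.7, 105 and 82.0 CPM and at 94.1, 96.1 and 64.1 CPM on day 9 and fell by 1.28, 1.34 and 1.57, so that each remained above 25 CPM on day 11. LIN28A, the inhibitor of let-7 processing, was at 1747, 1932 and 1598 CPM on day 9 and at 1249, 852 and 993 CPM on day 11 without passing (log2 fold change -0.79, adjusted p = 0.103). SOX2 had 15.2, 2.44 and 13.3 CPM against 1.44, 0.537 and 0.388 CPM (log2 fold change -3.71, adjusted p = 0.0648), and NANOG overlapped between the days at 3.08 CPM or less.

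Genes of the primitive streak followed in part, while those of the Nodal pathway moved both ways. Of 14 Nodal genes tested 1 was higher (FST) and 1 lower, with a median of -0.03 and 7 log2 fold changes of each sign. Of 15 streak genes 1 was higher (FGF8) and 1 lower, with a median of -0.62 and 13 negative log2 fold changes. With the plate as a block, and also with DESeq2, 1 streak gene was higher and 4 were lower. TDGF1, the Nodal coreceptor Cripto (chromosome 3, 46574534 to 46582457), stood at 63.2, 19.4 and 109 CPM on day 9 and at 4.05, 6.74 and 4.35 CPM on day 11 (log2 fold change -3.68, adjusted p = 0.0328, and 0.173 with the plate as a block). EOMES, a T-box factor of streak and early mesoderm, went from 23.1, 4.61 and 16.1 CPM to 1.48, 0.830 and 1.38 CPM (log2 fold change -3.58, adjusted p = 0.033, and 0.0576 with the plate as a block). The day 9 replicate of plate 6 was the lowest of its day for both genes. SOX17, a factor of endoderm and of haemogenic endothelium, fell by 2.80 from 44.6, 17.4 and 31.6 CPM to between 3.36 and 6.64 CPM.

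The 4 tested microRNA hairpins of the miR-302/367 cluster fell with the pluripotency genes. They, their host transcript and LARP7 were named after their values were seen. Of 58 microRNA genes tested, 4 were lower (6.90%) and none was higher, and all 4 belonged to this cluster, which is known for its expression in embryonic stem cells. These 4 hairpins lie on the minus strand of chromosome 4 between 112647874 and 112648430. MIR302B, a further hairpin of the cluster, was not found among the genes counted. The mature sequences from RefSeq are shown with the seed, bases 2 to 8, in capitals, because 3 of the 4 share 1 seed.
hsa-miR-302a-3p: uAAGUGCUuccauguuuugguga
hsa-miR-302c-3p: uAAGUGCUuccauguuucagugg
hsa-miR-302d-3p: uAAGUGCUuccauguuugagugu
hsa-miR-367-3p: aAUUGCACuuuagcaaugguga
MIR302A stood at 2.74, 2.31 and 3.79 CPM on day 9 and at 0.174, 0 and 0.129 CPM on day 11 (log2 fold change -4.77, adjusted p = 0.0177), which rests on 202 counts over the day 9 libraries and 7 over those of day 11. MIR302C, with 333 and 20 counts, fell by 3.96, MIR302D, with 164 and 11, by 3.76, and MIR367, with 81 and 4, by 4.16. On days 0 and 4 all 4 had been higher, with means of 27.9 and 27.6 CPM for MIR302C. In total RNA such reads come from hairpins or their host transcript and do not measure the mature microRNA. The host transcript MIR302CHG had a log2 fold change of -2.46 (adjusted p = 0.0662), and LARP7, the gene in which the cluster lies on the opposite strand, one of -0.72 (adjusted p = 0.0954).

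Some host transcripts of other microRNAs rose, named after their values were seen. The host transcript MIR205HG fell (log2 fold change -1.70, adjusted p = 0.0156). MIR100HG, on chromosome 11 from 122028325 to 122556721, went from 1.60, 1.49 and 0.921 CPM to 28.4, 50.1 and 18.9 CPM (log2 fold change 4.60, adjusted p = 0.0126), and MIR99AHG, on chromosome 21 from 15928296 to 16646364, from 0.970, 0.543 and 0.258 CPM to 3.53, 8.89 and 5.25 CPM (log2 fold change 3.33, adjusted p = 0.0299). Both transcripts were separated between the days. They contain related sets of microRNAs from different chromosomes, shown here because the seeds match in pairs: a member of the miR-99 and miR-100 family, a let-7 and a copy of miR-125b, whose mature form is identical at both sites.
hsa-miR-100-5p: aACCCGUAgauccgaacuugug
hsa-miR-99a-5p: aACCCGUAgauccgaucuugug
hsa-let-7a-5p: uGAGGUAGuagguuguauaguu
hsa-let-7c-5p: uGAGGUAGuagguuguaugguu
hsa-miR-125b-5p: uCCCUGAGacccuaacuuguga
MIR133A1HG, which carries the muscle microRNAs miR-133a and miR-1, rose from 1.94, 2.58 and 1.62 CPM to 24.6, 100.4 and 14.7 CPM (log2 fold change 4.50, adjusted p = 0.037). MIR1-1HG, the host of the other copies, did not pass (log2 fold change 2.65, adjusted p = 0.108).

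**Figure D3:**
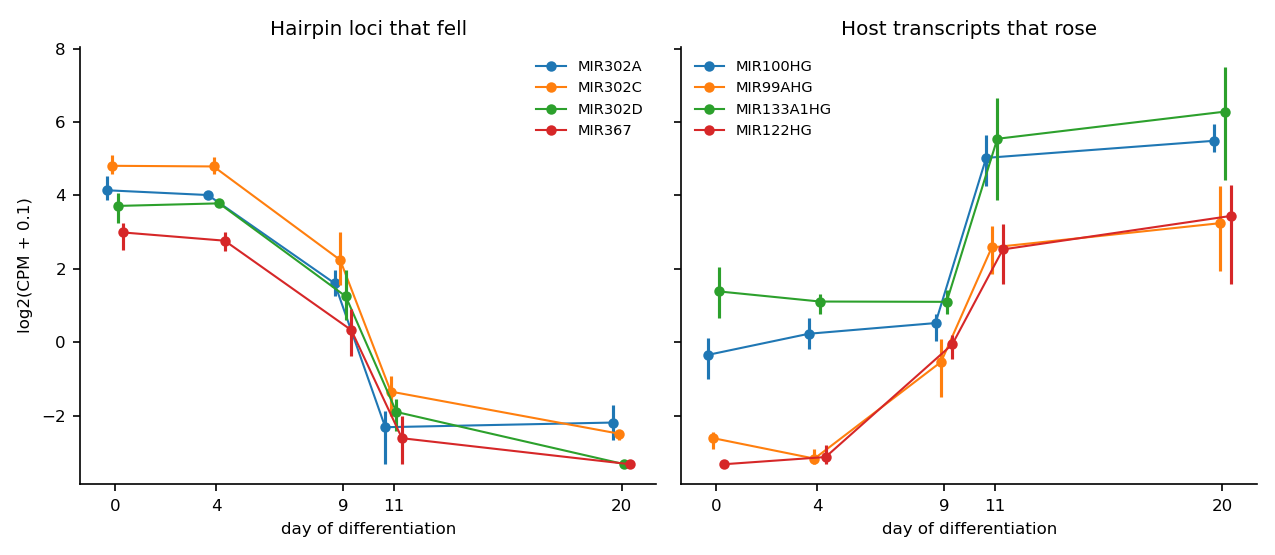
Reads on microRNA loci over the 5 days as log2(CPM + 0.1). Points are means and vertical lines the range over the 3 libraries of a day, slightly offset along the axis for each gene. The 4 hairpins fall between days 4 and 11, and the 4 host transcripts lie higher on day 11 than on day 9.

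Past the threshold, 9 long noncoding RNAs averaged 10 CPM or more on either day. LINC00458, a stem cell transcript, fell from 32.9, 10.5 and 7.96 CPM to 0.566, 0.293 and 1.68 CPM (log2 fold change -4.34, adjusted p = 0.0439, and 0.268 with the plate as a block), and LINC01356 fell by 3.28. MIR205HG, HOXB-AS1 and ADIRF-AS1 fell by 1.70, 1.57 and 1.41. MAGI2-AS3 and LINC00963 rose by 1.68 and 0.92 beside MIR100HG and MIR133A1HG.

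**Figure D4:**
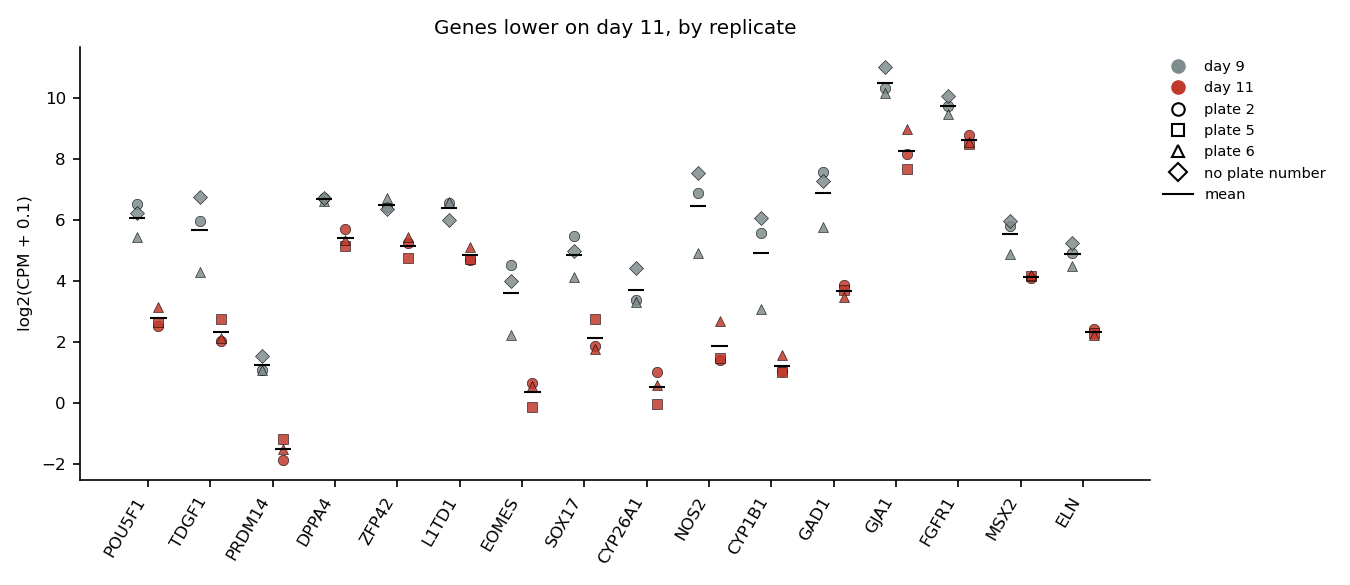
Levels of 16 genes that were lower on day 11, in each library as log2(CPM + 0.1), with day 9 in grey, day 11 in red, one symbol per plate and a line at the mean. The days do not overlap for any of the 16. The day 9 replicate of plate 6 (triangle) is the lowest of its day for most of them. These include POU5F1, DPPA4, TDGF1, EOMES, SOX17, CYP26A1, NOS2, CYP1B1, GAD1, GJA1, FGFR1 and ELN, but not ZFP42 or L1TD1.

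Enzymes of nitric oxide, oestrogen and retinoic acid metabolism were among the steepest declines. NOS2, the inducible nitric oxide synthase (chromosome 17, 27756766 to 27800529), went from 119, 30.1 and 188 CPM to 2.57, 2.69 and 6.46 CPM (log2 fold change -4.86, adjusted p = 0.0254, and 0.487 with the plate as a block), the largest fall among genes that averaged 10 CPM or more on either day. CYP1B1, a cytochrome that hydroxylates oestrogens and retinoids, went from 48.1, 8.37 and 67.7 CPM to 1.96, 1.95 and 2.88 CPM (log2 fold change -4.20, adjusted p = 0.0375, and 0.468 with the plate as a block). In both genes the day 9 replicate of plate 6 stood between the other day 9 replicates and day 11. Both had been under 5 CPM on average on days 0 and 4, and their means on day 20 were 2.29 and 4.94 CPM. The 16 nitric oxide genes had 1 higher and 2 lower with a median of -0.13, and the 8 aryl hydrocarbon receptor targets tested 1 higher and 1 lower with a median of 0.18. CYP26A1, which breaks down retinoic acid, fell from 10.4, 9.86 and 21.4 CPM to 1.92, 0.879 and 1.42 CPM (log2 fold change -3.31, adjusted p = 0.0173). Of 18 genes of the retinoic acid pathway, with a median of -0.81, it was the only one lower by edgeR (4 were lower with the plate as a block and 5 with DESeq2), while ALDH1A1, which makes retinoic acid, rose from 0.400, 2.44 and 0.111 CPM to 33.2, 25.1 and 54.1 CPM (log2 fold change 5.23, adjusted p = 0.0352) and the retinoid receptor RXRG rose by 3.54. ALDH1A2, the synthase of embryonic mesoderm, stayed at or under 2.14 CPM in all 6 libraries.

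Several further declines were in genes best known from the nervous system or from matrix. GAD1, which makes the transmitter GABA, went from 190, 54.4 and 157 CPM to 14.5, 13 and 11.1 CPM (log2 fold change -3.40, adjusted p = 0.0203, and 0.0871 with the plate as a block), and it had been at a mean of 0.348 CPM on day 0. ADCY2, an adenylyl cyclase, fell by 2.93, and PCDH10, a protocadherin, by 3.04 (adjusted p = 0.0488, and 0.0784 with the plate as a block). PSKH2, a kinase, and HHIPL2 fell by 3.08 and 3.21, the former with an adjusted p of 0.177 under the plate block. None of the 13 neural and neural crest markers tested passed edgeR, while 5 had an unadjusted p under 0.05, and their median was -0.82 (2 higher and 2 lower with DESeq2). The summed level of this list did not fall in step. It was 499, 390 and 548 CPM on day 9 and 735, 1940 and 486 CPM on day 11, highest in plate 5. Among matrix genes, ELN, elastin, fell from 30.1, 22.5 and 38.0 CPM to 5.36, 4.88 and 4.65 CPM (log2 fold change -2.62, adjusted p = 0.0103), COL9A2 fell by 2.03 and ITIH5, a hyaluronan-binding protein, by 2.82. ELN and COL9A2 were the only genes past the threshold on the lists of 25 mesenchymal genes (median 0.20, with 9 higher and 2 lower with the plate as a block) and 22 collagens (median 0.38, with 7 higher and 1 lower). IGFBP6, which sequesters IGF2, fell by 1.71 and was the only edgeR call among 18 genes of the insulin and IGF axis (median 0.15), where 6 were higher and 2 lower with the plate as a block and 3 higher and 1 lower with DESeq2. ADM was the only edgeR call among 25 hypoxia and glycolysis genes (median 0.45), where 5 were higher and 2 lower with the block and 5 higher and 1 lower with DESeq2.

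The cultures also held markers of other cell types, and these differed between replicates of a day. The endoderm and yolk sac list, 22 genes with 20 tested, had 3 higher and 1 lower, and its summed level was 622, 1067 and 579 CPM on day 9 and 1669, 1069 and 3185 CPM on day 11. AFP, the fetal serum protein of yolk sac and liver (chromosome 4, 73431138 to 73456174), stood at 1.83, 2.85 and 2.06 CPM on day 9 and at 192, 29.6 and 511 CPM on day 11 (log2 fold change 6.73, standard error 1.05, adjusted p = 0.0276). SERPINA1, alpha-1-antitrypsin, went from 0.685, 1.63 and 0.737 CPM to 49.3, 17.1 and 106 CPM (log2 fold change 5.79). For both genes plate 6 was the highest and plate 5 the lowest of day 11, while MYL3 was highest in plate 5 (25.6, 142 and 42.3 CPM). VTN, vitronectin, rose by 2.13. The fibrinogen chain FGB ran from 3.22 CPM in plate 5 to 485 CPM in plate 6 on day 11 and overlapped day 9 (log2 fold change 2.04, adjusted p = 0.559). The endoderm factors FOXA2 and HNF4A had log2 fold changes of -0.27 and 0.50 (adjusted p = 0.657 and 0.691).

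Endothelial markers, taken as a sum, were highest in the day 11 replicate of plate 5. Of 15 tested, none was higher and SOX17 alone was lower (5 higher with DESeq2 and 4 with the plate as a block). The summed level of the 16 listed genes was 89.4, 78.8 and 97.9 CPM on day 9 and 192, 441 and 123 CPM on day 11. Each day 11 sum thus lay above each day 9 sum. TEK alone, however, made up 112 of the 192 CPM in plate 2 and 101 of the 123 CPM in plate 6. For 5 of the 15 genes all of day 11 lay above day 9, and for 1 below. Over all genes tested these shares were 12.2% and 11.5%. The list's median of 2.39 dropped to 0.57 without the day 11 replicate of plate 5 and to 1.21 with the plate as a block. CDH5, VE-cadherin, had 3.08, 2.22 and 5.08 CPM on day 9 and 14.7, 79.6 and 2.33 CPM on day 11 (log2 fold change 3.20, adjusted p = 0.201), and PECAM1, CD31, had 2.31, 25.0 and 1.29 CPM on day 11 (log2 fold change 2.39, adjusted p = 0.326). Both were thus highest in plate 5 and within the day 9 range in plate 6. TEK did not show this order, at 112, 104 and 101 CPM on day 11. NPPA, the atrial natriuretic peptide gene, was also concentrated in plate 5, at 5.32, 163 and 5.21 CPM (log2 fold change 6.83, adjusted p = 0.0992). COL3A1, a collagen of mesenchyme, ran the other way with 3161, 731 and 6876 CPM on day 11 after 212, 1427 and 40.0 CPM on day 9 (log2 fold change 2.65, adjusted p = 0.356). Whether these differences in cell types bear on the muscle genes, which were also highest in plate 5, was not tested. Of the skeletal muscle list, MYOD1, MYOG and MYF5 stayed at or under 0.685 CPM in all 6 libraries, and PTPRC, which marks blood cells, at or under 0.0905 CPM. Other members of both lists were expressed. The skeletal muscle list summed to 158, 107 and 185 CPM on day 9 and to 73.5, 91.6 and 189 CPM on day 11. The blood list summed to 29.3, 19.3 and 28.2 CPM on day 9 and to 25.6, 50.2 and 10.8 CPM on day 11. None of the 5 skeletal muscle and 5 blood markers tested passed edgeR or DESeq2, with 2 and 1 at an unadjusted p under 0.05 and medians of -0.26 and -0.72.

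**Figure D5:**
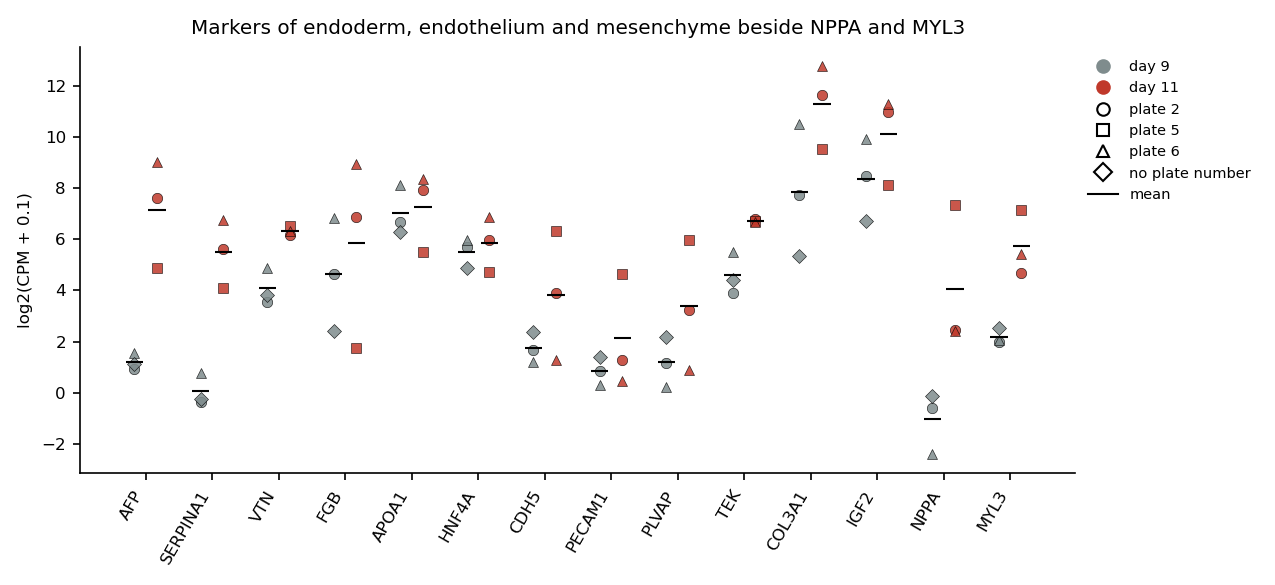
Markers of endoderm, endothelium and mesenchyme beside NPPA and MYL3 in each library as log2(CPM + 0.1), with day 9 in grey, day 11 in red, one symbol per plate and a line at the mean. On day 11 AFP, SERPINA1, FGB, COL3A1 and IGF2 are lowest in the replicate of plate 5 (square), in which CDH5, PECAM1, PLVAP, NPPA and MYL3 are highest.

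None of 28 mitosis genes and none of 28 S phase genes passed edgeR (1 S phase gene was lower with DESeq2), with 0 and 2 at an unadjusted p under 0.05, and their medians were -0.14 and -0.23. Negative log2 fold changes numbered 21 and 23. All of day 11 lay below day 9 for 0 and 9 of them, and for 11.5% of all genes tested. The S phase list summed to 1859, 2088 and 1882 CPM on day 9 and to 1857, 1146 and 1783 CPM on day 11, lowest in plate 5. MKI67 had a log2 fold change of -0.04 (adjusted p = 0.956) and TOP2A one of -0.21 (adjusted p = 0.669). The 16 immediate early genes, which respond to handling, had no call by edgeR or DESeq2, 1 unadjusted p under 0.05 and a median of 0.41. The Notch list of 15, the 20 genes of the integrated stress response, the 14 cyclin D and CDK inhibitor genes and the 12 epicardial markers had no edgeR call either, with medians between 0.22 and 0.30. They held 3, 3, 4 and 1 genes with an unadjusted p under 0.05 and, with DESeq2, 1, 1, 2 and 1 that were higher. With the plate as a block 4, 2, 3 and 4 were higher and 1, 0, 1 and 0 lower. Among 24 cholesterol synthesis genes, with a median of 0.10, MVK, mevalonate kinase, rose by 1.78 and no other passed. Epithelial markers had no edgeR call among 20 tested, 4 unadjusted p under 0.05 (7 lower with the plate as a block and 4 with DESeq2) and a median of -0.47.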

How the data were processed

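Total RNA of H1 cultures was sequenced as paired reads from stranded libraries. The authors aligned the reads to GRCh38 with STAR 2.5.2b and deposited raw counts per gene from featureCounts 1.5.1, with ribosomal and mitochondrial genes left out, and TPM per gene. The deposited sample table lists each library's lane, its share of uniquely mapped reads (a fraction) and its RNA integrity (a score). Groups came from the labelled day. The study's methods list a different harvest day in place of day 9, which was not resolved here. Counts of the 6 libraries were tested with edgeR 4.0.16 (R 4.3.3) by glmQLFit and glmQLFTest after filterByExpr (minimum count 10, minimum total 15) and TMM scaling. CPM were computed from these counts. A fold change rests on depths of at least 16260897 counts. The deposited TPM were used only in limma 3.58.1 on log2(TPM + 1).

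DESeq2 1.42.0, other scalings, filters, blocks and leaving out each replicate were the alternatives. The plate numbers of the sample titles were treated as a shared batch name and not as a pairing. Same-plate deviations between the days correlated at 0.14 for plate 2 and 0.36 for plate 6. On simulated counts for all 20679 genes, edgeR recovered 95 of 100 genes changed 4-fold and 12 of 100 changed 2-fold, with 1 false call. The simulation gave every gene the same dispersion, changed only genes with higher counts and held no plate or library effect. Its figures therefore do not carry over to the real libraries, in which single replicates weighed heavily. An exact permutation test of 3 against 3 cannot go below 0.1, so none was used.

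Genes named are the 15 largest changes in each direction (called, not overlapping, at least 10 CPM on the higher day), members of 37 gene lists, and called long noncoding RNAs of that level; others are said to be chosen after their values were seen. Some genes that this rule allows are not reported here. The members and lists were chosen with earlier results of these data known. Gene positions and biotypes are from GENCODE 44, and promoters and microRNAs from RefSeq (GRCh38.p14). The labels call the replicates biological without naming their cultures, so p-values measure the spread between these libraries.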

Additional observations from a re-analysis of the deposited data

How the results depend on the processing

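The counts of genes higher on day 11 and genes lower on day 11 depended on the test and on single libraries. DESeq2 gave 937 higher and 724 lower, the plate as a replicate block 1165 and 798, and no filter on low counts 552 and 463. With all 15 libraries in one fit 112 were lower. Leaving out each replicate in turn gave 0 to 277 higher and 0 to 285 lower, and none of the 484 genes passed all 6 of these fits, since edgeR called 0 genes once plate 2 of day 9 was dropped (2353 at an unadjusted p under 0.05). Upper-quartile scaling, library size alone, a mean of 1 CPM, limma on TPM and the lane as a block gave 213 to 414 higher and 162 to 272 lower. Of the 37 list medians, 8 changed sign under some alternative (Nodal, Notch, cholesterol, epicardial, laminins, mitosis, hormones and skeletal muscle). No called gene named in the text changed direction. Of the others, the MKI67 log2 fold change turned to 0.047 with limma and 0.17 with the plate as a replicate block and ran from -0.23 to 0.087 with a replicate left out. Over such omissions the HNF4A log2 fold change ran from -0.11, without plate 6 of day 11, to 0.89, the PECAM1 log2 fold change from -0.015, without plate 5 of day 11, to 2.91, and the SLC25A13 log2 fold change from -0.34 to 0.087. The cause was not tested. Hairpin counts of at most 10 a library limit the microRNA values on day 11.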

Other observations

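A further group was chosen after its values were seen. The malate-aspartate shuttle carries reducing equivalents from glycolysis into mitochondria, and 3 of its 7 genes were higher on day 11 and none lower, with a median log2 fold change of 0.42. GOT1, the cytosolic aspartate aminotransferase, stood at 38.7, 45.9 and 43.0 CPM on day 9 and at 87.4, 119 and 86.9 CPM on day 11 (log2 fold change 1.19, adjusted p = 0.0208 by edgeR). SLC25A12, the aspartate-glutamate carrier of heart and brain, went from 7.48, 8.19 and 8.14 CPM to 17.3, 23.9 and 20.7 CPM (log2 fold change 1.36, adjusted p = 0.0183 by edgeR). The replicates of both genes were close within each day and did not overlap between days. The oxoglutarate carrier SLC25A11 rose by 0.68. MDH1 and MDH2, the malate dehydrogenases, had log2 fold changes of 0.41 and 0.42, GOT2 one of 0.07 and SLC25A13, the carrier of liver, one of -0.12, and none of these passed.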
